A study of Canis lupus familiaris with 6 samples.

Results

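The tumour necrosis factor (TNF) superfamily was examined in left ventricular RNA of dogs with and without cardiomyopathy. Its members were all probe sets whose single gene symbol in the array annotation was TNF, LTA, LTB, FAS, FASLG, CD40, CD40LG or CD27, or began with TNFRSF, TNFSF or TNFAIP, or was a numbered TRAF. The rule used no measured value and found 71 probe sets of 44 genes among the 43035 probe sets of the array. By role, 30 probe sets of 15 genes were ligands, 24 of 18 genes were receptors, 6 of 4 genes were TRAF adaptors and 11 of 7 genes were TNF alpha induced proteins. A further probe set with TNFRSF21 and a second symbol was left out. Of the symbols that the rule takes from the RefSeq gene table of the dog, TNFAIP8L2, TNFRSF17, TNFRSF6B, TNFSF12, TRAF4 and TRAF6 were not analysed here.

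Affected hearts came from 3 Great Danes diagnosed with cardiomyopathy, a female of 9 years (affected 1) and males of 7 years (affected 2 and affected 3). The control group held a male Labrador retriever of 12 years (control 1), a female St. Bernard of 10 years (control 2) and a male Greater Swiss Mountain dog of 4 years (control 3). Every affected dog was a Great Dane and no control was, so breed and disease cannot be told apart. Frozen ventricle was measured on 1 Affymetrix canine array per dog; the labels call the arrays biological replicates. Values are on the log2 scale and centred on the median of the 6 arrays for that probe set. The table thus gives no level, and neither the presence of a transcript nor the labelled tissue could be checked from it. In whole ventricle, fewer cells of a type and less RNA per cell cannot be told apart. All comparisons are n = 3 affected against n = 3 control dogs.

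TNF superfamily ligands are made as trimers, on the cell surface or shed from it, and gather their receptors into clusters. Receptors with a death domain, among them TNFRSF1A and FAS, can start caspase-driven cell death, whereas receptors without it, such as TNFRSF1B and CD40, bind TRAF adaptors and lead to NF-kB and kinase signalling. In the heart, TNF is known for depressing contraction and for its part in remodelling, and in mice its 2 receptors have been given opposing roles, TNFRSF1A harmful and TNFRSF1B protective.

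No TNF superfamily probe set passed the adjusted threshold. The smallest adjusted p among the 71 was 0.296 in limma with Benjamini-Hochberg adjustment over 42924 probe sets, where 1 probe set of all (0.00233%) passed as higher in affected hearts and 0 (0%) as lower. The value 0.296 was shared by members with limma unadjusted p-values as unlike as 0.00605 (TRAF7) and 0.122 (TNF Cfa.54.1.S1_at). Equal adjusted p-values here thus do not mark equal unadjusted ones. At an unadjusted p under 0.05, 1 member was higher in affected hearts (1.41%, against 4.53% of all probe sets) and 5 were lower (7.04%, against 6.32% of all). These shares lie near or below the background. After quantile normalization 2 members were higher (2.82%, against 6%) and 6 lower (8.45%, against 8.75%), and after each array was centred on its median 2 were higher (2.82%, against 5.56%) and 2 lower (2.82%, against 2.56%). The 6 probe sets were of TRAF7, FAS, TNFRSF13B, TNFRSF21 and TNFRSF1B, the last with 2 probe sets of opposite sign. The other members missed this threshold too, which does not show that they were alike in the groups.

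A small shift common to most of the array ran through the members. The median member stood at -0.02, -0.03 and -0.01 in affected 1, 2 and 3, and at 0.05, 0.01 and 0.10 in control 1, 2 and 3. The median difference, affected minus control, was -0.08 over the members and -0.08 over all probe sets. The array also carries 17 control probe sets for artificial tag sequences, whose medians were -0.03, -0.03 and -0.01 in affected 1, 2 and 3, and 0.06, 0.01 and 0.11 in control 1, 2 and 3. All 17 were lower in affected hearts, with a median difference of -0.08 and ranges over the 6 arrays of 0.124 to 0.382. The members' order of arrays was thus that of the tags, with control 3 highest and control 1 next.

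The 3 affected hearts were each lower than any control in 45 of the 71 members (63.4%, against 46.9% of all probe sets) and each higher in 2 (2.82%, against 5.37% of all). After each array was centred on its own median, 15 members lay below (21.1%, against 18.1%) and 10 above (14.1%, against 12.9%). Such centring evens out higher and lower values over the array by construction. After quantile normalization the counts were 16 below (22.5%, against 19.7%) and 9 above (12.7%, against 12.7%). In 41 members the 6 values correlated above 0.9 with the tag median (57.7%, against 41.8% of all probe sets). In 47 members the range was no wider than the widest tag range (66.2%, against 42.4%). Both held for 34 probe sets of 28 genes (47.9%, against 31.8%). These correlations are over 6 arrays and describe the pattern only.

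Those 34 probe sets differed by -0.19 to -0.04, 33 of them lay below every control, and in 33 control 3 was highest. They were picked for likeness to the tags, which were lower in affected hearts and highest on control 3. Their direction, non-overlap and highest array thus follow largely from that choice and are no separate result. None of the 34 reached an unadjusted p under 0.05 in limma. For 18 genes every probe set was of this kind. They were the ligands CD40LG, LTA, TNFSF8, TNFSF9, TNFSF11, TNFSF14 and TNFSF18, the receptors TNFRSF4, TNFRSF9, TNFRSF11A, TNFRSF13C, TNFRSF18, TNFRSF19 and TNFRSF25, the adaptor TRAF3, and TNFAIP2, TNFAIP3 and TNFAIP8L1. Many of these ligands and receptors are known from lymphocytes: CD40LG is the helper T cell signal to B cells, TNFSF11 is the osteoclast differentiation factor RANKL, TNFRSF11A is its receptor and TNFRSF13C is the B cell receptor for BAFF. TNFAIP3, also called A20, is a ubiquitin-editing inhibitor of NF-kB. Tag probe sets are designed to match no transcript of the sample. The 18 genes were those picked for following the tag pattern over a range no wider than the widest tag range. Whether these transcripts were present in the ventricle was not tested.

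**Figure D1:**
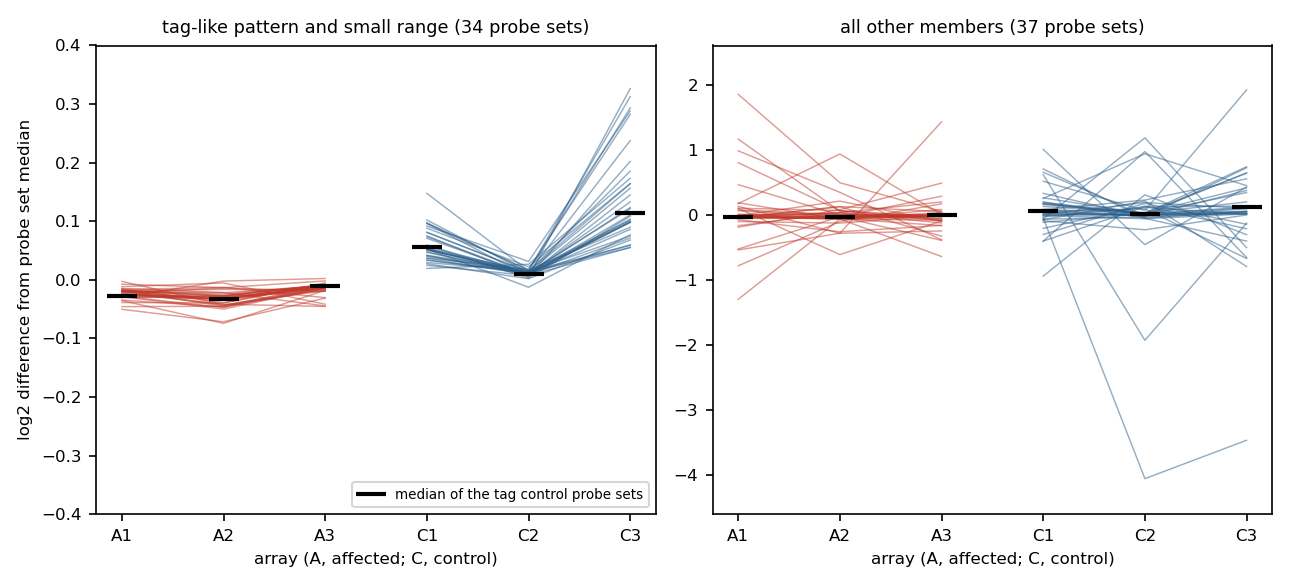
Log2 difference from the probe set median on each array (A, affected; C, control), with 1 line per probe set that joins its values within a group. Left, the 34 members that correlate above 0.9 with the tag median and have a range no wider than the widest tag range. Black bars mark the tag medians, and control 3 is highest in 33 of the 34. Right, the other 37 members on a wider axis, with control 3 highest in 13.

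The other 37 probe sets, of 26 genes, were split, 16 higher and 21 lower, with 12 below every control, 2 above every control and 23 overlapping. Over all probe sets, 46.9% lay below every control and 5.37% above. The 37 are what remained after the tag-like members were set apart, so their counts cannot be compared directly with those shares. Only 13 members of 10 genes had a range of at least 1 over the 6 arrays (18.3%, against 23.6% of all probe sets). Member ranges ran over 0.081 to 5.91 with a median of 0.268, against a median of 0.494 for all probe sets. By the range filter that kept the upper 60% of all probe sets, 29 members passed. Of these, 13 lay below every control (44.8%, against 23.7% of the probe sets kept) and 2 above (6.9%, against 8.74%). The filter used the range over all 6 arrays, so high controls alone could carry a probe set past it. FASLG Cfa.4547.1.A1_at, for example, passed with control 3 at 0.41 and a tag correlation of 0.96. The higher share below is thus no result apart from the tag pattern, whose part in it was not tested. The members described here include those that did not pass.

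**Figure D2:**
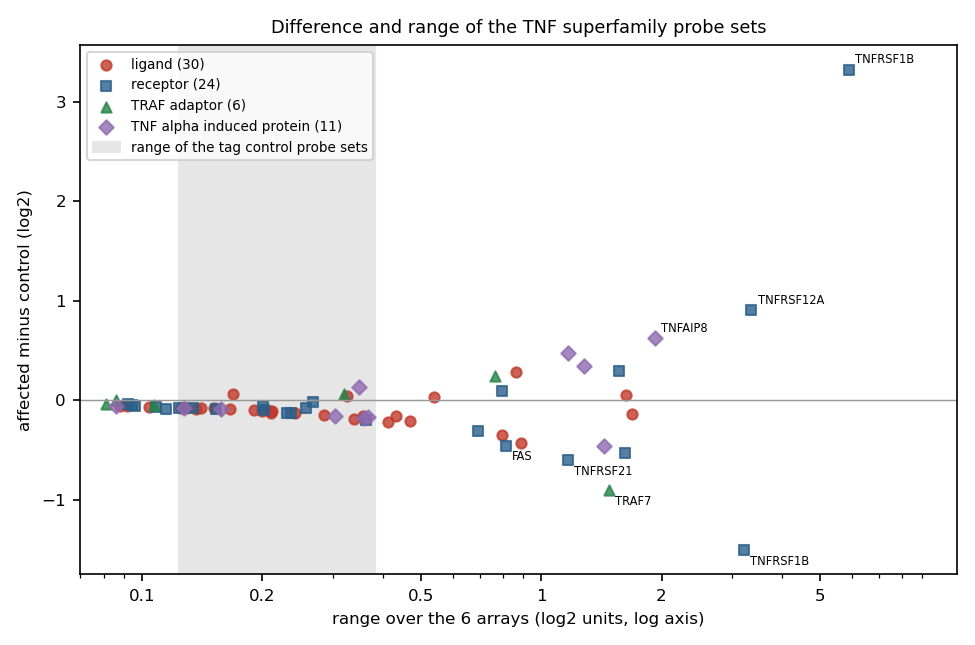
Difference between affected and control means (log2, vertical axis) against the range over the 6 arrays (log2 units on a log axis) for the 71 probe sets, with the shaded band showing the tag ranges of 0.124 to 0.382. Most members sit in or left of the band with differences just under 0, and the 2 TNFRSF1B probe sets lie far out on opposite sides.

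Among the ligands, 22 of 30 probe sets lay below every control (73.3%, against 46.9% of all probe sets), 0 lay above (0%, against 5.37%) and 8 overlapped, and 0 reached an unadjusted p under 0.05 in limma. Their differences ran over -0.43 to 0.29 with a median of -0.10, and 18 of the 30 were small and tag-like. TNF itself, the founding cytokine of the family, made mainly by macrophages, had 3 probe sets. The first, Cfa.54.1.S1_at, stood at -0.02, -0.03 and -0.00 in affected 1, 2 and 3, and at 0.00, 0.19 and 0.10 in control 1, 2 and 3, a difference of -0.11 (SE 0.06, limma adjusted p = 0.296). The second, Cfa.54.1.S1_s_at, stood at -0.05, -0.06 and -0.02 in affected 1, 2 and 3, and at 0.16, 0.02 and 0.74 in control 1, 2 and 3, a difference of -0.35 (SE 0.20, limma adjusted p = 0.296). Control 3 alone was far from the rest, and the values correlated at 0.96 with the tags. Without control 3 this difference was -0.132, and that of the first probe set was -0.0648 without control 2 and -0.0374 after median centring. The third, CfaAffx.1718.1.S1_at, stood at -0.03, -0.06 and 0.03 in affected hearts, and at -0.41, 0.12 and 0.13 in control hearts, a difference of 0.03 (SE 0.16, limma adjusted p = 0.901). Its groups overlapped and its sign depended on control 1: without that array it was -0.147. No difference in TNF transcript was therefore detectable with these arrays.

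TNFSF10, known as TRAIL, a ligand that can kill cells through death receptors, had the widest ranges of the ligands. Cfa.20893.1.S1_at stood at 0.08, 0.00 and -0.00 in affected 1, 2 and 3, and at -0.41, 0.97 and -0.66 in control 1, 2 and 3. CfaAffx.23621.1.S1_s_at stood at -0.03, 0.03 and 0.20 in affected hearts, and at -0.06, 1.18 and -0.51 in control hearts. Both probe sets placed control 2 highest and control 3 lowest, with the affected hearts close together between them. Their differences were 0.06 (SE 0.45) and -0.14 (SE 0.45), well within the spread among controls.

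TNFSF13, or APRIL, a survival factor for plasma cells, was near 0 on 5 arrays and high on affected 1 in Cfa.4802.1.S1_at: 0.80, 0.06 and -0.06 in affected hearts, and -0.01, -0.06 and 0.01 in control hearts, a difference of 0.29 (SE 0.24, limma adjusted p = 0.408). Its probe set Cfa.14708.1.A1_at differed by -0.05 and was tag-like, and CfaAffx.25432.1.S1_s_at differed by 0.06 with overlap. TNFSF4, a T cell costimulator, differed by -0.43 (SE 0.20, limma adjusted p = 0.296) in CfaAffx.22475.1.S1_at, with -0.17, 0.03 and -0.13 in affected hearts, and 0.33, -0.03 and 0.72 in control hearts. Its groups overlapped and it followed the tags at a correlation of 0.96. FASLG, the ligand of FAS, differed by -0.21 and -0.19 in its 2 probe sets, at tag correlations of 0.961 and 0.993. TNFSF13B, the B cell factor BAFF, differed by -0.21 to -0.07 over 3 probe sets, at tag correlations of 0.969 to 0.996. TNFSF15, a T cell costimulator also made by endothelium, differed by -0.16 to -0.07 over 4, at tag correlations of 0.913 to 0.998. LTB, a membrane anchor for lymphotoxin, differed by 0.05 in CfaAffx.1726.1.S1_at and -0.10 in CfaAffx.1728.1.S1_s_at.

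Among the receptors, 15 of 24 probe sets lay below every control (62.5%, against 46.9% of all), 1 lay above (4.17%, against 5.37%) and 8 overlapped. Differences ran over -1.50 to 3.32 with a median of -0.08, and both ends of that interval belonged to TNFRSF1B, the TNF receptor without a death domain, known mainly from immune and endothelial cells. CfaAffx.23529.1.S1_s_at stood at 1.85, 0.49 and 0.05 in affected 1, 2 and 3, and at -0.05, -4.06 and -3.47 in control 1, 2 and 3. The affected mean was 0.80 ± 0.94 and the control mean -2.52 ± 2.16 (SD, n = 3 each), a difference of 3.32 (SE 1.20, limma adjusted p = 0.296). Control 2 and control 3 were far below the other 4 arrays, while control 1 lay next to affected 3. Its range of 5.91 was the widest of all 71 members.

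The other TNFRSF1B probe set, CfaAffx.25151.1.S1_at, ran the opposite way. It stood at -1.30, -0.07 and -0.64 in affected 1, 2 and 3, and at 0.51, 0.07 and 1.92 in control 1, 2 and 3. The affected mean was -0.67 ± 0.62 and the control mean 0.83 ± 0.97 (SD, n = 3 each), a difference of -1.50 (SE 0.59, limma adjusted p = 0.296). Control 3 was the highest array and affected 1 the lowest, with affected 2 and control 2 side by side in the middle. Without control 3 the difference was -0.959, and with affected 2 as the only affected heart it was -0.898. The values followed the tags at a correlation of 0.92, yet over a range of 3.22, beyond the 0.382 of any tag probe set.

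The 2 probe sets correlated at -0.70 over the 6 arrays. Averaging them gave a difference of 0.91, whose sign is that of the wider probe set, so no direction is given here for TNFRSF1B as a gene. The names of the array's predicted-gene probe sets (CfaAffx) carry numbers that run along the genome in these files: of 16718 that could be placed in the RefSeq gene order (assembly UU_Cfam_GSD_1.0, used for names and neighbours only), 16116 (96.4%) lay within 20 genes of their number neighbours. Among members this held for 40 of 42. One exception was TNFRSF1B CfaAffx.23529.1.S1_s_at, which lay 57.5 genes away from its number neighbours, with EMC1 and UBR4 on either side by number. CfaAffx.25151.1.S1_at lay 1.0 gene away from its own, between DHRS3 and TNFRSF8 by number. The other exception was TNFSF9 CfaAffx.333.1.S1_at, 53.5 genes away. What CfaAffx.23529.1.S1_s_at binds was not tested, since no probe sequence was used here.

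**Figure D3:**
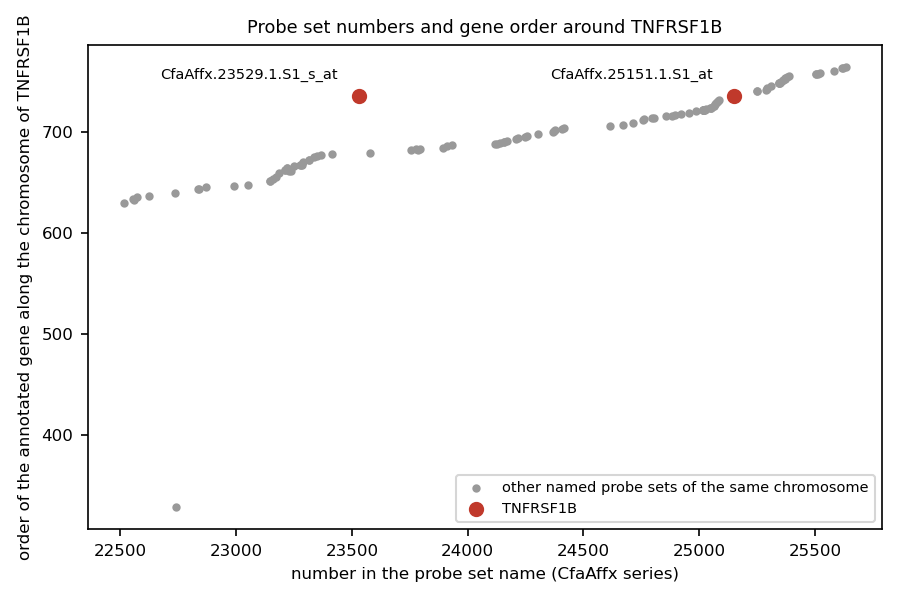
Order of the annotated gene along the chromosome that holds TNFRSF1B (vertical axis, gene rank) against the number in the CfaAffx probe set name (horizontal axis). Grey points are other named probe sets, which rise along a line apart from 1 point far below it; of the 2 red TNFRSF1B points, CfaAffx.25151.1.S1_at is on the line and CfaAffx.23529.1.S1_s_at is above it.

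The symbols whose pattern over the 6 arrays was most like each TNFRSF1B probe set also differed. For CfaAffx.23529.1.S1_s_at they were GRPEL1 (correlation 0.996), BNIP1 (0.995), FLNA (0.985), MRPL52 (0.984) and HDAC3 (0.983). Their ranges, at 0.60 to 1.27, were far narrower than 5.91. For CfaAffx.25151.1.S1_at they were ATCAY (0.997), CSNK1G1 (0.995), PARD6A (0.995), WDR72 (0.994) and STK3 (0.994), with ranges of 0.19 to 1.94. These are the highest of 29254 named probe sets over 6 arrays, and they describe likeness only.

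TNFRSF1A, the receptor that carries most of the inflammatory and lethal action of TNF, had 2 probe sets. Cfa.3498.1.S1_at stood at 0.01, -0.04 and -0.01 in affected hearts, and at 0.04, -0.01 and 0.05 in control hearts, a difference of -0.04 (SE 0.04, limma adjusted p = 0.5) that turned to 0.0328 after median centring. CfaAffx.23380.1.S1_s_at stood at 0.10, -0.61 and -0.10 in affected hearts, and at 1.00, -0.46 and 0.43 in control hearts, a difference of -0.53 (SE 0.42, limma adjusted p = 0.388). In the wider probe set the groups overlapped, with control 1 highest and affected 2 lowest. Leaving out control 1 gave -0.187, control 2 gave -0.918 and affected 2 gave -0.323.

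FAS, the death receptor for FASLG, stood at -0.08, -0.26 and -0.16 in affected 1, 2 and 3, and at 0.08, 0.23 and 0.55 in control 1, 2 and 3. The difference was -0.45 (SE 0.14, limma adjusted p = 0.296), with no overlap and control 3 highest, and the correlation with the tags was 0.898. TNFRSF21, known as death receptor 6, stood at -0.53, -0.03 and -0.39 in affected hearts, and at 0.19, 0.03 and 0.64 in control hearts in Cfa.17439.1.S1_at. Those values correlated at 0.894 with the tags. Their difference was -0.60 (SE 0.21, limma adjusted p = 0.296), with affected 2 and control 2 on either side of 0. With affected 2 as the only affected heart it was -0.315. Its probe set Cfa.17439.1.S1_s_at, which was small and tag-like, differed by -0.10.

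TNFRSF13B, the B cell receptor TACI, stood at -0.02, -0.06 and -0.17 in affected hearts, and at 0.13, 0.02 and 0.20 in control hearts. Its values correlated at 0.872 with the tags, over a range of 0.363 that was within the tag ranges. The difference was -0.20 (SE 0.07, limma adjusted p = 0.296). After median centring it was -0.127. CD27, a T cell costimulatory receptor, differed by -0.30 in CfaAffx.23305.1.S1_at, where control 3 stood at 0.64, and by -0.09 in CfaAffx.23305.1.S1_s_at. These values correlated at 0.964 and 0.9996 with the tags. TNFRSF8, an activation marker of lymphocytes, differed by -0.13 at a tag correlation of 0.899. TNFRSF14, the receptor for TNFSF14, differed by -0.07 to 0.09 over 3 probe sets of mixed sign.

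TNFRSF12A, the receptor for TWEAK, which is known to be induced in injured tissue, stood at 0.13, -0.29 and 1.43 in affected 1, 2 and 3, and at 0.62, -1.93 and -0.13 in control 1, 2 and 3. The difference of 0.90 (SE 0.81, limma adjusted p = 0.433) was near its error, and the groups overlapped, since affected 2 lay below controls 1 and 3. Leaving out control 2 gave 0.181, affected 3 gave 0.403 and control 1 gave 1.45. TNFRSF11B, or osteoprotegerin, the soluble decoy for TNFSF11, stood at 1.16, 0.06 and -0.08 in affected hearts, and at 0.70, -0.06 and -0.41 in control hearts, a difference of 0.30 (SE 0.45, limma adjusted p = 0.645). It was highest on affected 1 and control 1, and without affected 1 the difference was -0.0954. CD40, the receptor of antigen-presenting cells for CD40LG, stood at 0.18, -0.07 and -0.08 in affected hearts, and at 0.02, -0.02 and 0.09 in control hearts, a difference of -0.02.

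Macrophage and monocyte markers showed the same pair of high arrays as TNFRSF11B. Their list (14 genes, 25 probe sets, 0 at an unadjusted p under 0.05 in limma) had medians of 2.02, -0.04 and -0.01 in affected 1, 2 and 3, and of 1.21, -0.42 and -0.54 in control 1, 2 and 3. TNFRSF1B CfaAffx.23529.1.S1_s_at was also highest on affected 1, with control 1 the highest control, whereas CfaAffx.25151.1.S1_at was lowest on affected 1. TNFSF13 Cfa.4802.1.S1_at, CD40 and TRAF2 CfaAffx.29873.1.S1_s_at were highest on affected 1 too, but control 1 was not raised in any of them. TNFAIP8 (0.98 and -0.94), TRAF5 (0.46 and -0.30) and TNFSF13 CfaAffx.25432.1.S1_s_at (0.10 and -0.07) were highest on affected 1 and lowest on control 1. TNFSF13 Cfa.14708.1.A1_at was highest on control 3. The part of macrophages in these values was not tested. Neutrophil markers (7 of 10 genes, 9 probe sets) were all lower. Of the 9, 8 lay below every control and 7 followed the tags, where 46.9% and 41.8% of all probe sets did. At an unadjusted p under 0.05 in limma, 22.2% of them were lower, against 6.32% of all probe sets. The 2 that reached an unadjusted p under 0.05 were S100A8, at -2.14 (SE 0.47, limma adjusted p = 0.296), and S100A9, at -2.71 (SE 0.61, limma adjusted p = 0.296), which encode calprotectin, and the part of neutrophils in the members' values was not tested. B and plasma cell, dendritic cell and mast cell markers followed the tags in 10 of 14, 5 of 7 and 6 of 9 probe sets. Smooth muscle and adipocyte markers had 0 probe sets of 21 and of 8 at an unadjusted p under 0.05 in limma. Over all probe sets, 4.53% were higher and 6.32% lower at that threshold.

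T and NK cell markers (13 of 15 genes, 24 probe sets) followed the tags in 18 probe sets, where 41.8% of all probe sets did. Their medians were -0.02, -0.03 and -0.01 in affected hearts, and 0.07, 0.01 and 0.12 in control hearts. Fibroblast markers had the largest median difference of the 11 marker lists, at 1.73 (10 genes, 26 probe sets). Of the 26, 23 were higher and 3 lower, namely PDGFRA at -0.69, TCF21 at -0.18 and a COL3A1 probe set at -0.12. At an unadjusted p under 0.05 in limma, 11 of the list were higher (42.3%, against 4.53% of all probe sets) and 0 lower (0%, against 6.32%). Those 11 were all of COL1A1, COL1A2, COL3A1, DCN, FAP, FBLN1 and LUM, some with several probe sets. The medians of the whole list were 1.15, 0.04 and 0.99 in affected hearts, and -0.30, -0.06 and -1.78 in control hearts. Affected 2 was close to control 2 in that list, and the part of fibroblasts in the members' values was not tested. Endothelial markers (9 genes, 18 probe sets) had 1 higher (5.56%, against 4.53% of all) and 2 lower (11.1%, against 6.32%) at that threshold. Their medians were -0.42, -0.09 and 0.18 in affected hearts, and -0.05, 0.54 and 0.04 in control hearts, so those groups overlapped. Cardiomyocyte markers (14 of 18 genes, 50 probe sets) had 5 higher (10%, against 4.53% of all) and 1 lower (2%, against 6.32%). Their medians were -0.08, 0.12 and 0.12 in affected hearts, and 0.01, -0.03 and -0.17 in control hearts. Centred values have no 0 level, so no marker can be called absent.

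Among the TRAF adaptors, which carry receptor signals to kinases and ubiquitin ligases, 2 of 6 probe sets lay below every control (33.3%, against 46.9% of all) and 4 overlapped. TRAF7, a ubiquitin ligase that acts with MAP3K3, had the smallest p of all members. It stood at -0.54, -0.28 and -0.25 in affected 1, 2 and 3, and at 0.25, 0.94 and 0.45 in control 1, 2 and 3. The means were -0.36 ± 0.16 in affected and 0.54 ± 0.35 in control hearts (SD, n = 3 each), a difference of -0.90 (SE 0.20, limma adjusted p = 0.296). The groups did not overlap, control 2 was highest, and the correlation with the tags was 0.57. Over all alternative settings the difference ran over -1.05 to -0.707 and the adjusted p over 0.125 to 0.628. TRAF5, an adaptor of lymphocyte receptors, stood at 0.46, -0.00 and 0.00 in affected hearts, and at -0.30, 0.17 and -0.15 in control hearts, a difference of 0.25. TRAF2, the adaptor of TNFRSF1B and of the TNFRSF1A complex, differed by -0.04 to 0.06 over 3 probe sets, and TRAF3, a brake on alternative NF-kB signalling, by -0.05.

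The TNF alpha induced proteins, named for genes first found after TNF treatment and not a protein family, had 6 of 11 probe sets below every control (54.5%, against 46.9% of all), 1 above (9.09%, against 5.37%) and 4 overlapping. TNFAIP8, a regulator of cell survival, stood at 0.98, 0.34 and -0.39 in affected hearts, and at -0.94, 0.31 and -0.31 in control hearts, a difference of 0.63 (SE 0.47, limma adjusted p = 0.366). Affected 1 and control 1 held the extremes. TNFAIP8L3, a lipid transfer protein of the same family, stood at 0.17, 0.93 and 0.00 in affected hearts, and at -0.09, -0.23 and -0.00 in control hearts in Cfa.10601.2.S1_a_at. The difference of 0.48 (SE 0.26, limma adjusted p = 0.296) came with no overlap, but affected 2 alone was far from the rest, and CfaAffx.23563.1.S1_at gave -0.16.

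TNFAIP1, an adaptor of a cullin ubiquitin ligase, also disagreed between probe sets: Cfa.7342.1.A1_at differed by 0.14, Cfa.7342.2.A1_at by 0.35 (SE 0.32) and CfaAffx.28514.1.S1_at by -0.46 (SE 0.32), all overlapping. TNFAIP6, a hyaluronan-binding protein of inflamed tissue, differed by -0.16. TNFAIP2 differed by -0.17 in CfaAffx.27855.1.S1_at and -0.07 in CfaAffx.27855.1.S1_s_at, both tag-like. Of the 18 genes with several probe sets, 9 had probe sets of both signs, namely LTB, TNF, TNFAIP1, TNFAIP8L3, TNFRSF14, TNFRSF1B, TNFSF10, TNFSF13 and TRAF2.

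**Figure D4:**
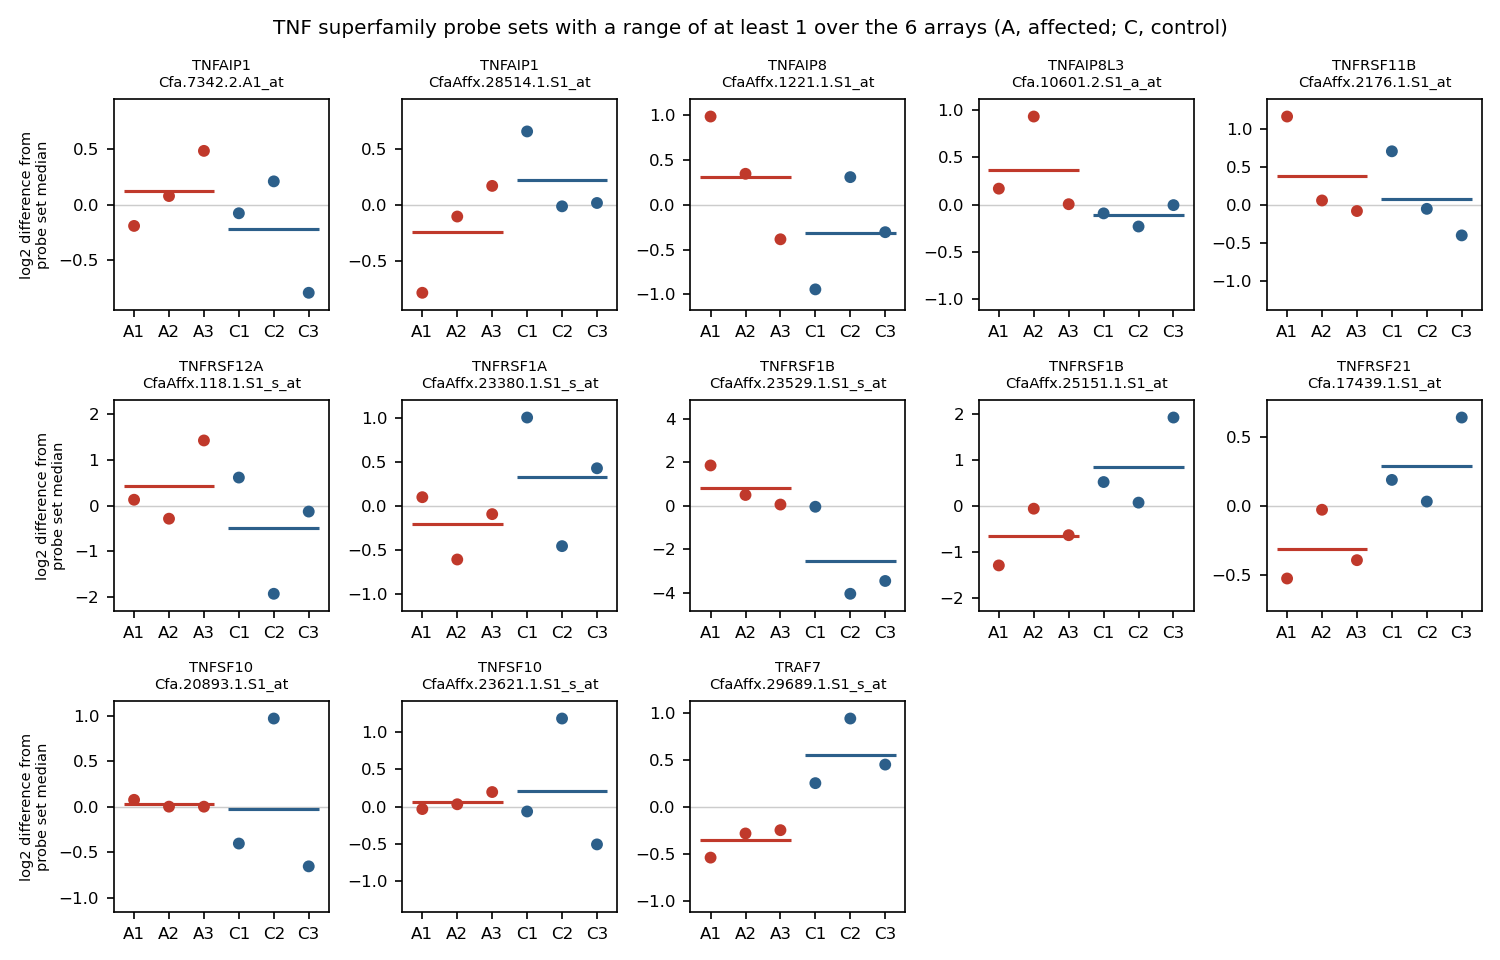
Log2 difference from the probe set median on each array for the 13 members with a range of at least 1 (A, affected, red; C, control, blue; bars, group means; each panel has its own vertical scale). TRAF7, TNFRSF21, TNFAIP8L3 and both TNFRSF1B probe sets show no overlap of the groups, and the other 8 panels overlap.

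Genes downstream of the receptors, taken from 3 lists, also gave 0 probe sets past the adjusted threshold. Of the list of NF-kB and death signalling genes, 47 of 50 were measured by 85 probe sets, of which 2 were higher (2.35%, against 4.53% of all probe sets) and 8 lower (9.41%, against 6.32%) in affected hearts at an unadjusted p under 0.05. The median difference was -0.06. The 4 genes with the smallest p were CFLAR at -0.41 (SE 0.12, limma adjusted p = 0.296), RNF31 at -0.26 (SE 0.08), XIAP at -0.43 (SE 0.14) and MADD at -0.13 (SE 0.04). CFLAR and XIAP restrain caspases, RNF31 is the catalytic subunit of the linear ubiquitin ligase at TNFRSF1A, and MADD binds the death domain of TNFRSF1A. These are the probe sets with the smallest p, and the others of the same genes were smaller in size. They gave -0.07, -0.08 and -0.06 for CFLAR, -0.04 and 0.05 for XIAP, -0.09 and -0.04 for RNF31, and -0.03 for MADD. In the probe sets with the smallest p, the correlation with the tags was 0.97 for XIAP and 0.94 for MADD. It was 0.67 for CFLAR and 0.52 for RNF31. The MADD probe set also had a range of 0.206, no wider than the widest tag range.

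Of the list of NF-kB target genes, 24 of 26 were measured by 44 probe sets, with 1 higher (2.27%, against 4.53% of all probe sets) and 4 lower (9.09%, against 6.32%) at an unadjusted p under 0.05 and a median of -0.10. SOD2, the mitochondrial superoxide dismutase, stood at -0.26, -0.28 and -0.32 in affected 1, 2 and 3, and at 0.51, 0.30 and 0.26 in control 1, 2 and 3. The difference was -0.64 (SE 0.08, limma unadjusted p = 0.000444, adjusted p = 0.296), and its other probe set gave -0.40 (SE 0.18) with overlap. The affected hearts lay within a narrow span, as did the controls. IRF1, an interferon-responsive transcription factor, stood at 1.42, 0.50 and 0.29 in affected hearts, and at -0.29, -0.38 and -0.91 in control hearts, a difference of 1.26 (SE 0.35, limma adjusted p = 0.296). Its other probe sets gave 0.11 and -0.55, so its probe sets did not all share a sign. IL1B, an inflammatory cytokine, differed by -0.61 (SE 0.23) in its probe set with the smallest p. CSF2, a myeloid growth factor, differed by -0.28 (SE 0.10). These IL1B and CSF2 values correlated at 0.99 and 0.94 with the tags.

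Of the list of family members under other symbols and shedding factors, 12 of 14 genes were measured by 24 probe sets, with 1 higher (4.17%, against 4.53% of all probe sets) and 1 lower (4.17%, against 6.32%) at an unadjusted p under 0.05 and a median of -0.08. RHBDF1, an inactive rhomboid that regulates the TNF-shedding protease ADAM17, stood at 0.15, 0.20 and 0.97 in affected hearts, and at -0.64, -0.15 and -1.25 in control hearts. The difference was 1.12 (SE 0.37, limma adjusted p = 0.296), and its other probe sets gave 0.04 and 0.12 with overlap. LTBR, the lymphotoxin beta receptor, differed by -0.34 (SE 0.12) at a tag correlation of 0.98, while its other 4 probe sets gave -0.31, -0.08, 0.10 and 0.19. BTLA, a partner of TNFRSF14, differed by -0.26, with -0.13 and 0.07 in its other probe sets, and RHBDF2 by -0.11 and -0.07. The BTLA probe set at -0.26 correlated at 0.996 with the tags, and the RHBDF2 probe sets at 0.987 and 0.984. In the 3 lists, 17 of 85, 15 of 44 and 13 of 24 probe sets followed the tags, where 41.8% of all probe sets did.

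**Figure D5:**
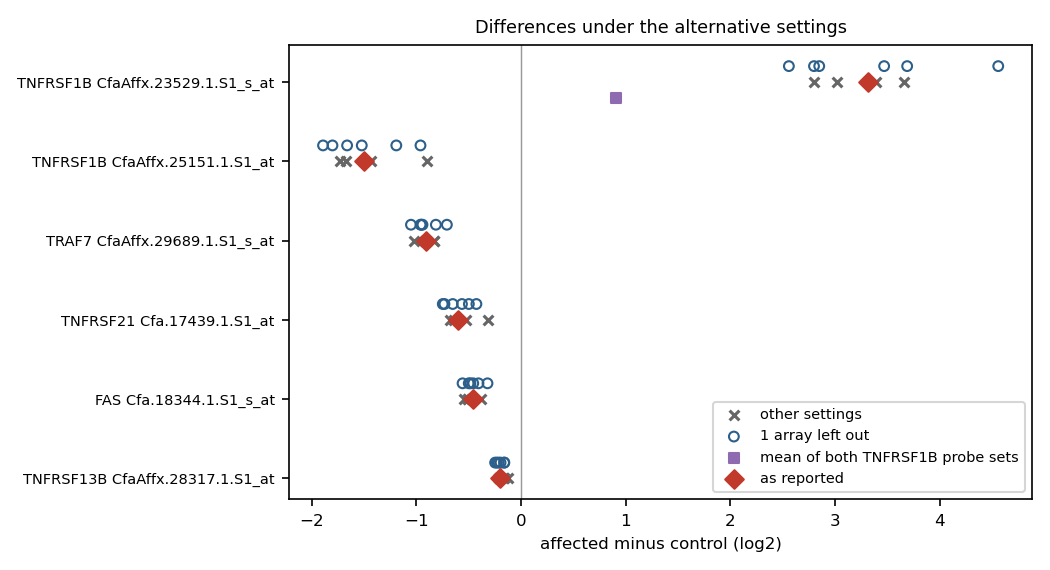
Difference between affected and control means (log2) of the 6 members at an unadjusted p under 0.05, as reported and under the alternative settings. The differences of TNFRSF1B CfaAffx.25151.1.S1_at spread over -1.89 to -0.898, and the square marks the mean of both TNFRSF1B probe sets at 0.91.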

How the data were processed

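RNA of 6 left ventricles was measured on Affymetrix canine arrays. The deposited values were taken as log2, a scale inferred from their range and from MAS5 and GCRMA, which the submitters' processing notes name without role or version. Every probe set's median over the 6 arrays was 0 in the deposited table (largest absolute median 5e-07), so it holds differences between arrays. A genome build is not given in the sources used here. For arrays, their number limits precision.

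Without any filter, the 42924 non-control probe sets entered 1 model with a group term (limma 3.58.1, R 4.3.3, moderated by eBayes, two-sided tests). Residual degrees of freedom were 4 and those of the prior 1.13. P-values were adjusted by Benjamini-Hochberg over all of them, at a threshold of 0.05. Differences are affected minus control. Gene names came from the array annotation: 29254 probe sets had 1 symbol, 439 several and 13231 none. The fit was tested on simulated data.

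Members, pathway and marker lists were chosen with earlier results of these data known. Values on every array are given for members at an unadjusted p under 0.05, for those without overlap and a difference of at least 1, and for TNF, TNFRSF1A and TNFRSF1B. The 4 genes with the smallest p represent each pathway list, and the 5 symbols of highest correlation each TNFRSF1B probe set. Per-array values of the other members were added after their values were seen. Alternatives changed the filter, normalization, covariates, replicate block, variance prior and gene summary, or left out arrays.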

Additional observations from a re-analysis of the deposited data

How the results depend on the processing

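No member passed the adjusted threshold of limma under any of the alternatives. The count of members lower at an unadjusted p under 0.05, 5 as reported, was 2 after median centring, 20 with age as a covariate (22.7% of all probe sets), 0 with affected 2 as the only affected heart (1.42% of all), and 1 to 23 with each array left out in turn (23 without control 2, where 28.5% of all were lower, 1 without affected 3 and 2 without control 1, where 1.73% and 2% of all were). The count higher, 1 as reported, was 2 after quantile normalization, 2 after median centring, 0 with gene means (4.88% of all genes) and 0 to 2 with an array left out (2 without control 2, where 7.22% of all were higher, 0 without control 3 or any affected array). With the replicate number as a block, 2 members were higher and 2 lower (5.11% and 5.27% of all). In their deviations from the group means, same-numbered arrays correlated at 0.272, 0.147 and 0.0218, and differently numbered ones at -0.233 to 0.0446. For each affected array the same-numbered control was the most alike, though for affected 3 only by 0.0218 against 0.0132 with control 2. Deviations from a group mean balance out within the group by construction, so these correlations are tied to each other. The labels name no pairs, so the main model used none, and whether the numbers mark pairs was not tested. Pathway probe sets higher numbered 4 as reported, where 4.53% of all probe sets were higher. They numbered 7 after quantile normalization (6% of all), 8 with age (6.8%) and 0 with gene means (4.88% of all genes). With an array left out they numbered 2 to 10 (2.56% to 7.22% of all). Pathway probe sets lower numbered 13 as reported, where 6.32% of all probe sets were lower. They numbered 3 after the range filter (2.99% of the probe sets kept), 7 after median centring (2.56% of all) and 33 with age (22.7%). With gene means they numbered 6 (5.64% of all genes), and with an array left out 2 to 37 (1.53% to 28.5% of all probe sets). The members' median difference, -0.0782, was -0.162 after the range filter, -0.00564 after quantile normalization, -0.00553 after median centring and -0.0972 to -0.0556 with an array left out. Counts of members without overlap, a setting added after seeing the data, were 16 below and 9 above after quantile normalization, 15 and 10 after centring, and 45 to 50 below and 2 to 6 above with an array left out (6 without control 2, 5 without affected 3), against 48.1% to 52.6% of all probe sets below and 6.12% to 12.6% above. TNF CfaAffx.1718.1.S1_at turned to -0.0186 with age, -0.00813 with affected 2 alone, -0.143 as the gene mean and -0.147 without control 1, and ran over -0.147 to 0.122 with an array left out. TNFSF10 Cfa.20893.1.S1_at turned to -0.0544 after quantile normalization, -0.0411 as the gene mean, -0.131 without control 1 and -0.257 without control 3 (-0.257 to 0.557 with an array left out), and CfaAffx.23621.1.S1_s_at to 0.35 without control 2 (-0.493 to 0.35). TNFRSF11B turned to -0.0258 with affected 2 alone and -0.0954 without affected 1 (-0.0954 to 0.608 with an array left out). TNFRSF1A Cfa.3498.1.S1_at turned to 0.035 after quantile normalization and 0.0328 after centring. As gene means, TNFRSF1B CfaAffx.25151.1.S1_at was replaced by 0.91 and TNFAIP1 CfaAffx.28514.1.S1_at by 0.00847, since these average probe sets of both signs. The causes of the other changes were not tested. The number of dogs, 3 per group, limits the precision, and the table gives no level.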
